A study of Mus musculus with 4 samples.

Results

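SR proteins, hnRNPs and the core splicing factors of the SF3A, SF3B, PRPF and U2AF groups were examined by their mRNAs in the RNA that co-precipitated with TSSK2. The members were all rows of the count table whose gene symbol in the mouse gene set GENCODE vM21 starts with Srsf, Hnrnp, Sf3a, Sf3b, Prpf or U2af. This gave 56 of the 21936 genes in the table, with 11 Srsf, 20 Hnrnp, 3 U2af, 3 Sf3a, 6 Sf3b and 13 Prpf genes, and 55 of them had enough counts to be tested. The exception was U2af1l4, with 0 counts in all 4 libraries, which allows a level of up to 0.689 CPM (read counts scaled by the library's TMM-normalized total) in the shallowest one and covers counting error only. The exons of U2af1l4 overlap Psenen on the opposite strand and Gm49396 on the same strand.

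The study asked which mRNAs associate with TSSK2, a testis-specific serine kinase that marks the late chromatoid body (late-CB), a cytoplasmic RNA-protein granule of elongating spermatids. Germ cells were released from the testes of adult C57BL/6 mice and cross-linked with paraformaldehyde. The low-speed pellet of the sonicated lysate was immunoprecipitated with an anti-TSSK2 antibody (TSSK2-IP, 2 libraries) or, as the negative control, with mouse IgG (control IgG-IP, 2 libraries, called control replicate 1 and 2). All 4 libraries came from the same strain and from the same kind of mixed germ cell suspension, and nothing says whether the 2 libraries of a group came from separate animals, so the p-values measure only the spread between these libraries, which may be technical. Precipitates of bulk lysate cannot tell fewer cells of one type from less RNA per cell.

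Pre-mRNA splicing removes introns in the nucleus. U2AF recognizes the 3′ splice site, the SF3A and SF3B complexes of the U2 snRNP hold the branch point, and many PRPF proteins belong to the U4/U6.U5 tri-snRNP or to complexes that activate the spliceosome. SR proteins, which carry arginine-serine repeats, mostly promote the use of nearby splice sites, and hnRNPs often oppose it. Testis is known for extensive alternative splicing. Many SR and hnRNP genes limit their own protein through a "poison" exon, an alternative exon with an early stop codon that sends the mRNA to nonsense-mediated decay.

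Such exons are shown for 4 SR genes because an annotated decay transcript is a feature that most of this subfamily shared beyond its name. GENCODE vM21 listed at least 1 decay transcript for 9 of the 11 Srsf genes, for 29 of the 55 tested members (52.7%) and for 27.0% of all annotated genes tested. In 5 Srsf genes the decay transcript held an internal exon that lies between coding exons, overlaps no coding sequence of a protein-coding transcript and contains the stop codon. The stretch from the start of the exon to its stop codon, in capitals, was read 5′ to 3′ from the GRCm38 genome. For Srsf3 it is chr17:29039454-29039487 on the plus strand, within an exon of 456 bases. For Srsf7 it is chr17:80205054-80205081 on the minus strand, within 460 bases. For Srsf9 it is chr5:115328347-115328428 on the plus strand, within 358 bases, and for Srsf4 chr4:131884276-131884390 on the plus strand, within 207 bases.
Srsf3: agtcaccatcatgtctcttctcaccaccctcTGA
Srsf7: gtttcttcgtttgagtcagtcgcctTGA
Srsf9: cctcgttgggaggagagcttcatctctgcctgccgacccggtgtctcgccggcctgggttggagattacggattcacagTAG
Srsf4: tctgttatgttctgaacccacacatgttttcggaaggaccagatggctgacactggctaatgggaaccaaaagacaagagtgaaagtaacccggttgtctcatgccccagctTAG
The deposited counts are per gene, so they do not separate these transcripts from the coding ones.

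The libraries held between 3938922 and 9858941 counts, and members took between 0.497% and 0.684% of them. Counts of the tested members ranged from 5 to 12879 in a library. The control IgG-IP libraries were far less alike than the TSSK2-IP libraries. Log2 ratios of the replicates of a group, taken over 6631 genes with a mean of at least 20 CPM, had an SD of 0.89 in the controls and 0.22 in TSSK2-IP. Germ cell markers dominated all libraries, as the label testis implies, with 4871 to 5305 CPM summed over 11 spermatid markers in TSSK2-IP, 12618 in control replicate 1 and 6364 in control replicate 2. The 8 spermatocyte markers summed to 962 to 1167 CPM. Summed levels of the Sertoli, Leydig, myoid, macrophage and spermatogonial lists were at most 53.5 CPM per list in any library. These sums cover only the markers with enough counts to be tested (5 of 8, 5 of 6, 3 of 4, 4 of 5 and 6 of 7). None of the 30 markers on these lists was at 0 in all libraries. The part of the spermatid signal of control replicate 1 in the results was not tested.

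No member passed both thresholds, which were a log2 fold change of 1 or more in size together with a Benjamini-Hochberg adjusted p of 0.05 or less by the edgeR quasi-likelihood test over all 14722 genes tested. The count was 0 of 55 in either direction, where 0.693% of all genes tested were called higher in TSSK2-IP and 0% lower. DESeq2 also called 0 members. The lowest adjusted p among members was 0.238 and the highest 0.984 in the edgeR fit. At an unadjusted p under 0.05, 6 members were higher (Srsf3, Srsf6, Srsf9, Hnrnpm, Hnrnph3 and U2af2) against a background of 8.34% of all genes, and 2 were lower (Sf3a3 and Prpf6) against 4.89%. These shares of the 55 members are close to the background. The same counts were 5 and 5 with DESeq2. With 2 libraries against 2, an exact permutation test of a single mRNA cannot go below a two-sided p of 0.333.

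By rank alone, most Srsf and both tested U2af mRNAs lay above the controls and all Sf3a mRNAs below. The Hnrnp, Sf3b and Prpf mRNAs were mixed. Both TSSK2-IP libraries were above both control libraries for 28 members, where 27.3% of all genes tested were, and below both for 15, where 21.6% were. The 28 comprised 10 of 11 Srsf, 10 of 20 Hnrnp, 2 of 2 tested U2af, 0 of 3 Sf3a, 2 of 6 Sf3b and 4 of 13 Prpf mRNAs. The 15 comprised 1 Srsf, 2 Hnrnp, 3 Sf3a, 3 Sf3b and 6 Prpf mRNAs. No member was so far apart that the lower TSSK2-IP library was 2-fold or more above the higher control library (0 of 55, against 4.01% of all genes) or the reverse (0 of 55, against 0.312%). Members are measured in the same 4 libraries and are not independent replicates of the comparison.

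**Figure D1:**
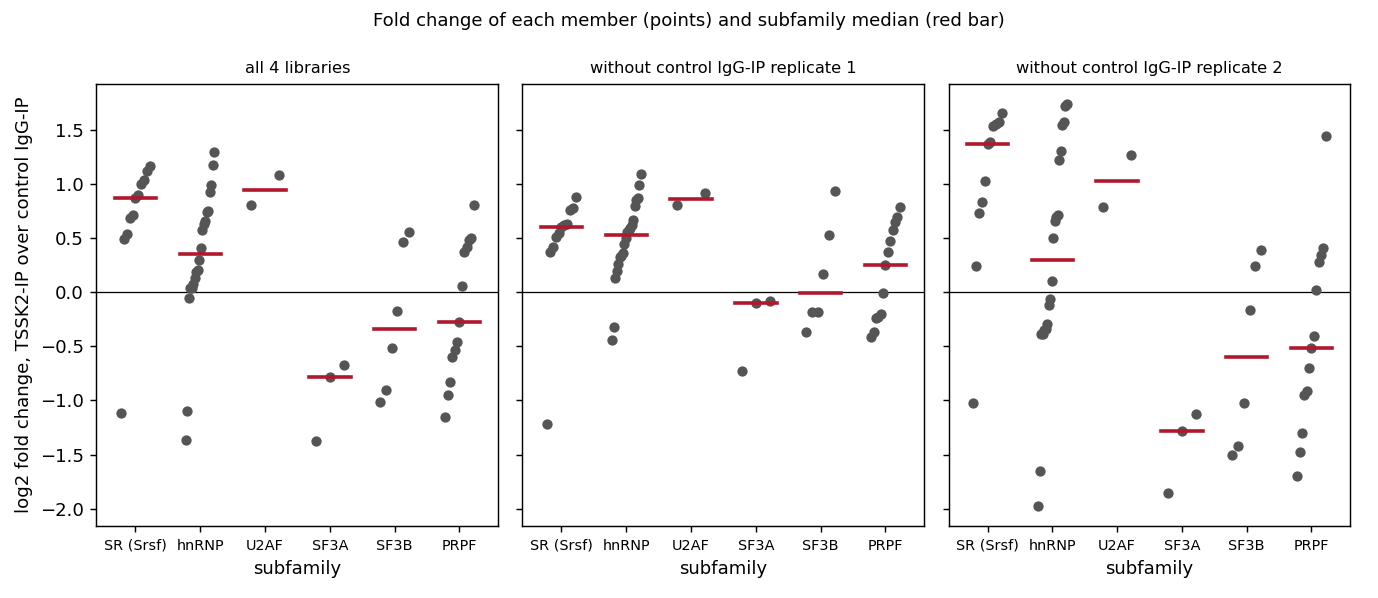
Log2 fold change of TSSK2-IP over control IgG-IP for the 55 tested members (points) by subfamily, with the subfamily median as a red bar, in the fit of all 4 libraries and in fits without either control library. The Srsf, Hnrnp and U2af medians were above 0 in all panels. The Prpf median was below 0 with all libraries (-0.28) and above 0 without control replicate 1 (0.25).

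SR protein mRNAs had a median log2 fold change of 0.87, beside -0.02 over all genes tested. All but Srsf12 had a positive value, and 0 of 11 passed both thresholds. Srsf3, the smallest SR protein and one that also links splicing to mRNA export, had 103 and 110 CPM in TSSK2-IP and 34.9 and 60.0 in control IgG-IP. Its log2 fold change was 1.17 (standard error, SE, of 0.44, adjusted p = 0.299 by the edgeR quasi-likelihood test). Both TSSK2-IP values exceeded both control values, and control replicate 2 lay between them and replicate 1.

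Srsf9, a short SR protein with a weak arginine-serine tail, showed the same order, with 33.2 and 29.1 CPM in TSSK2-IP and 9.99 and 18.8 in control IgG-IP. The log2 fold change was 1.12 (SE 0.43). Srsf6, whose product regulates many alternative exons, had 92.0 and 72.9 CPM in TSSK2-IP against 26.8 and 55.8, a log2 fold change of 1.00 (SE 0.45). Per kilobase of exon, merged over all annotated transcripts, Srsf5 was the most abundant SR mRNA. It had 58.9 CPM per kilobase in TSSK2-IP and 28.7 in the controls. Its 4 values were 223 and 246 CPM in TSSK2-IP and 71.3 and 158 in the controls, a log2 fold change of 1.04 (SE 0.54). None of these 3 passed (adjusted p = 0.307, 0.364 and 0.413 from the same edgeR test).

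Of the SR mRNAs, 9 followed the order of TSSK2-IP above control replicate 2 above control replicate 1, as did 2976 of all 14722 genes tested. The others were Srsf4, in which the control libraries were in the opposite order, and Srsf12. Srsf12, which encodes an SR protein reported to repress splicing, was barely detected, with 11 and 5 counts in TSSK2-IP and 20 and 17 in control IgG-IP. Its TSSK2-IP values of 2.28 and 0.951 CPM were below the control values of 3.12 and 3.91 CPM (log2 fold change -1.11, SE 0.86, adjusted p = 0.566 by the edgeR quasi-likelihood test). The poison exons printed above belong to genes that all had a positive value, as 10 of the 11 Srsf genes did, so this does not set them apart.

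The size of the SR difference depended on the control library. The median log2 fold change was 0.60 without control replicate 1 and 1.37 without control replicate 2, where the medians of all genes tested were 0.05 and 0.14. It was 0.54 with offsets for GC content and exonic length. Srsf genes had a median GC content of 41.4% and all annotated genes tested one of 49.0%, and the part of GC content in the difference was not tested beyond these offsets. The SR mRNAs not described singly had log2 fold changes between 0.49 and 0.90. Exons of 3 Srsf genes overlap a gene on the opposite strand, and without these the median was 0.95.

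**Figure D2:**
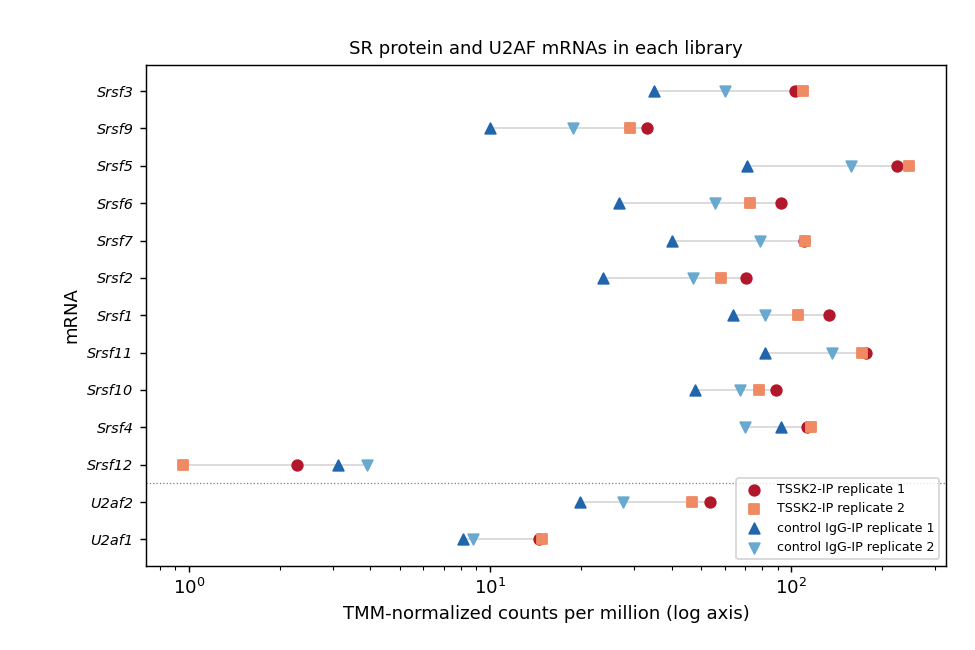
Normalized CPM (log axis) of the 11 Srsf and 2 tested U2af mRNAs in each of the 4 libraries, ordered by log2 fold change within each subfamily. Red and orange symbols (TSSK2-IP) lie to the right of both blue symbols (control IgG-IP) in every row but Srsf12, and the control libraries are up to 2.21-fold apart (Srsf5).

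Both tested U2AF mRNAs also lay above the controls, at a median log2 fold change of 0.94, with neither past both thresholds. U2af2, the large subunit that binds the polypyrimidine tract, had 53.5 and 46.8 CPM in TSSK2-IP and 19.8 and 27.6 in control IgG-IP. The log2 fold change was 1.08 (SE 0.40, adjusted p = 0.287 by the edgeR quasi-likelihood test). U2af1, the small subunit that reads the AG at the intron end, had 14.5 and 14.8 CPM against 8.11 and 8.73, a log2 fold change of 0.80 (SE 0.44, adjusted p = 0.430 from the same test). The control libraries were close to each other for U2af1, and leaving out either gave 0.80 or 0.78. For U2af2 these values were 0.92 and 1.27.

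The hnRNP mRNAs were divided. Their median log2 fold change was 0.36, with 17 of 20 above 0, and 0 passed both thresholds. In 8 of them the TSSK2-IP and control values overlapped, as they did in 7520 of all 14722 genes tested. Hnrnpm, a regulator of alternative exons and the member with the largest positive value, had 190 and 177 CPM in TSSK2-IP and 60.1 and 89.1 in control IgG-IP. Its log2 fold change was 1.30 (SE 0.48, adjusted p = 0.285 by the edgeR quasi-likelihood test). Without control replicate 1 it was 1.10 and Hnrnpm was then the only member called in either direction (1 of 55), where 5.38% of genes were called higher and 2.56% lower. That fit has 1 control library, whose spread is taken from the TSSK2-IP pair, and the pair was much closer than the controls were (SD 0.22 against 0.89).

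Hnrnph3, of the hnRNP H group that binds G-rich RNA, had 94.9 and 89.6 CPM in TSSK2-IP and 29.6 and 52.4 in control IgG-IP, a log2 fold change of 1.17 (SE 0.44). Hnrnpa2b1, whose product packages nascent transcripts and also binds RNAs transported in the cytoplasm, had 238 and 233 CPM against 96.4 and 141, a log2 fold change of 0.99 (SE 0.51). Neither passed (adjusted p = 0.291 and 0.409 by the edgeR quasi-likelihood test). In both, as in Hnrnpm, every TSSK2-IP value was above every control value.

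At the other end were Hnrnpu and Hnrnpul1, the gene of a nuclear scaffold-attachment protein that binds RNA and DNA and the gene of a related protein. Averaged over the 4 libraries, Hnrnpu was the most abundant hnRNP mRNA per kilobase, at 57.9 CPM per kilobase in TSSK2-IP and 124 in the controls. It had 686 and 658 CPM in TSSK2-IP, 873 in control replicate 2 and 2009 in control replicate 1. Hnrnpul1 had 297 and 275 CPM in TSSK2-IP, 405 in control replicate 2 and 1073 in control replicate 1. Both mRNAs were below both controls in TSSK2-IP, but the controls were 2.30-fold and 2.65-fold apart. The log2 fold changes were -1.10 (SE 0.83) and -1.37 (SE 0.71), with adjusted p = 0.556 and 0.412 by the edgeR quasi-likelihood test. Without control replicate 1 they were -0.32 and -0.45, and without control replicate 2 they were -1.65 and -1.98. Together these 2 mRNAs made up 65.7% of all hnRNP counts in control replicate 1, 44.2% in control replicate 2 and 29.6% to 30.0% in TSSK2-IP. Hnrnpu shares exonic bases with Cox20 on the opposite strand.

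The 15 hnRNP mRNAs not described singly had log2 fold changes between -0.05 (Hnrnpr) and 0.92 (Hnrnph1). The hnRNP median was 0.53 without control replicate 1, 0.30 without control replicate 2 and 0.21 with the offsets for GC content and length. Exons of 8 hnRNP genes overlap a gene on the opposite strand, and without these the median was 0.62. Several hnRNP genes also have processed pseudogenes elsewhere in the genome, which leaves their counts uncertain where reads could map to both.

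**Figure D3:**
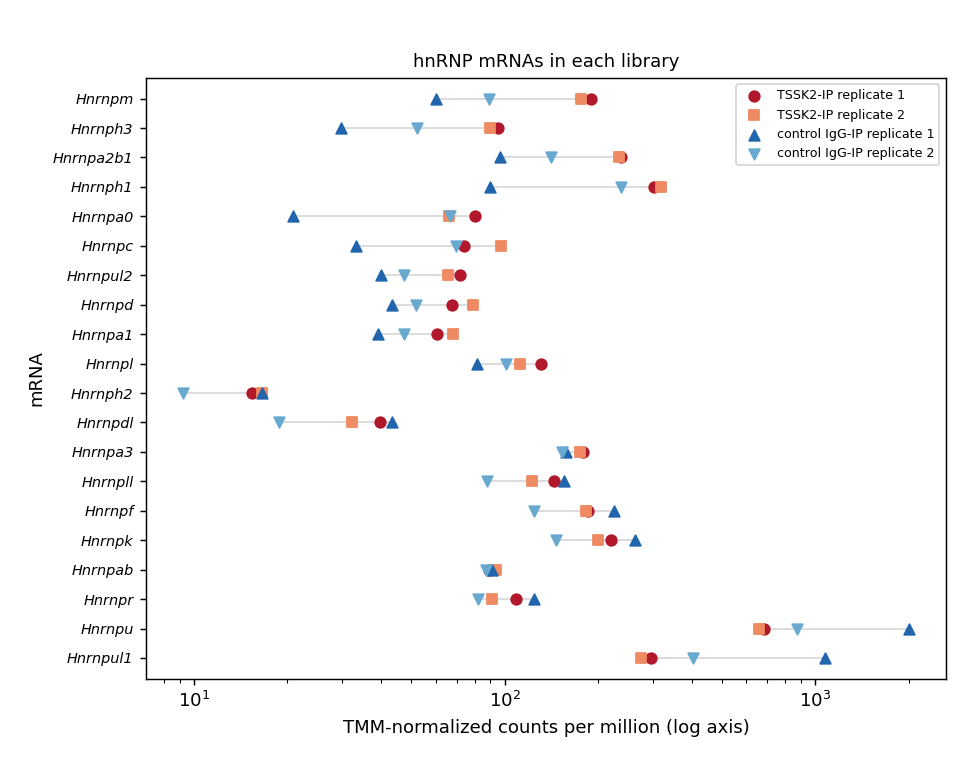
Normalized CPM (log axis) of the 20 Hnrnp mRNAs in each of the 4 libraries, ordered by log2 fold change. Control replicate 1 (dark blue) is the lowest of the 4 values in Hnrnpm at the top and the highest in Hnrnpul1 at the bottom. The rows are sorted by a fold change that includes this library, and the rows between do not change regularly. The 2 TSSK2-IP libraries stay close together.

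The SF3A complex, of which all 3 subunits were tested, lay on the opposite side. Its mRNAs had a median log2 fold change of -0.78, both TSSK2-IP libraries were below both controls for all 3, and 0 passed both thresholds. Sf3a3, a subunit needed for U2 snRNP assembly, had the smallest p of all members. It had 22.8 and 24.2 CPM in TSSK2-IP, 81.0 in control replicate 1 and 40.4 in control replicate 2. Its log2 fold change was -1.37 (SE 0.44, adjusted p = 0.238 by the edgeR quasi-likelihood test), and it was -0.73 without control replicate 1 and -1.85 without control replicate 2.

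Sf3a2, a zinc finger subunit, had 26.3 and 29.7 CPM in TSSK2-IP against 65.2 and 30.8, and Sf3a1, the largest subunit, had 66.1 and 54.6 against 125 and 67.3. The gap of these 2 mRNAs to control replicate 2 was small, and their log2 fold changes of -0.78 and -0.67 (SE 0.44 and 0.45, adjusted p = 0.437 and 0.506 by the edgeR quasi-likelihood test) became -0.08 and -0.10 without control replicate 1. The SF3A median then was -0.10, and it was -1.29 without control replicate 2.

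SF3B mRNAs had a median of -0.34, and 0 of 6 passed. Sf3b2, which contacts the pre-mRNA near the branch site, had 144 and 120 CPM in TSSK2-IP against 357 and 177 in control IgG-IP (log2 fold change -1.01, SE 0.55). Sf3b4, a partner of Sf3b2 with a pair of RNA recognition motifs, had 43.3 and 39.0 against 105 and 48.7 (log2 fold change -0.90, SE 0.45). In both, the TSSK2-IP values were below both controls and control replicate 1 was about 2-fold above replicate 2. Sf3b3, a scaffold subunit, ran the other way at 71.3 and 71.2 CPM against 51.8 and 51.2, with 4 values in tight pairs (log2 fold change 0.47, SE 0.40). Sf3b6, which contacts the branch-point adenosine, was low, with 21 and 26 counts in TSSK2-IP and 24 and 11 in control IgG-IP (log2 fold change 0.55, SE 0.69). Adjusted p-values of these 4 were 0.424, 0.398, 0.606 and 0.739 by the edgeR quasi-likelihood test. Without control replicate 1 the SF3B median was -0.01, and without control replicate 2 it was -0.60. With offsets for GC content and length it was -0.56.

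PRPF mRNAs had a median of -0.28, with 6 of 13 above 0 and 0 past both thresholds. Prpf6, the tri-snRNP bridging protein, had 51.2 and 40.2 CPM in TSSK2-IP against 141 and 61.1, a log2 fold change of -1.15 (SE 0.48). Prpf8, the large protein at the centre of the spliceosome and the most abundant Prpf mRNA per kilobase, had 141 and 124 CPM against 311 and 159, a log2 fold change of -0.83 (SE 0.54). For Prpf40b, whose product is related to a U1 snRNP factor, the values were 73.8 and 57.8 against 174 and 80.2, a log2 fold change of -0.95 (SE 0.48). All TSSK2-IP values of these 3 mRNAs were below both controls, and control replicate 1 was the highest. They did not pass (adjusted p = 0.336, 0.498 and 0.403 by the edgeR quasi-likelihood test).

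Prpf39, a U1-associated alternative splicing factor, had the highest Prpf value, with 44.4 and 29.7 CPM in TSSK2-IP and 12.95 and 29.6 in control IgG-IP. TSSK2-IP replicate 2 and control replicate 2 were almost equal for it, and its log2 fold change was 0.81 (SE 0.46, adjusted p = 0.446 by the edgeR quasi-likelihood test). The PRPF median was above 0 without control replicate 1, at 0.25, and was -0.52 without control replicate 2, so its direction rested on the first of these libraries.

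**Figure D4:**
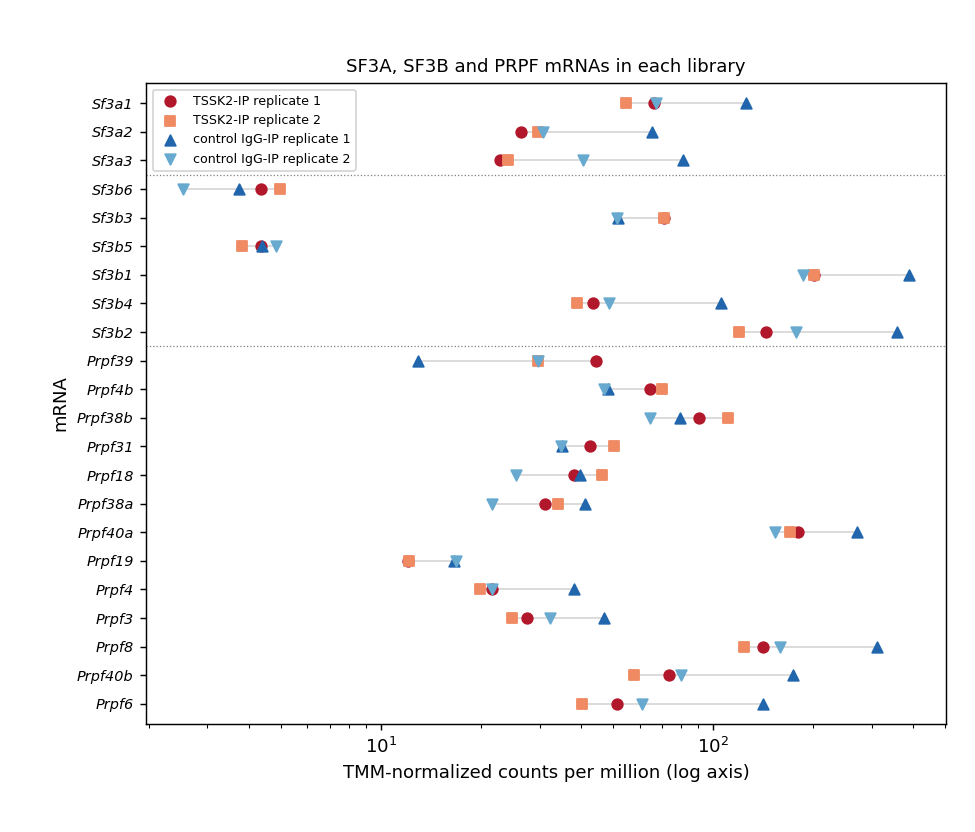
Normalized CPM (log axis) of the Sf3a, Sf3b and Prpf mRNAs in each of the 4 libraries, ordered by log2 fold change within each subfamily. In the Sf3a rows, in Sf3b1, Sf3b2 and Sf3b4 and in Prpf6, Prpf8 and Prpf40b, control replicate 1 (dark blue) stands to the right of the other 3 libraries.

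The contrast between SR mRNAs and those of SF3A, SF3B and PRPF could also be expressed within each library, where no scaling between libraries enters. Ratios of summed counts use the same counts as the fold changes, so they are not separate support for it. U2AF mRNAs, which lay above the controls like most SR mRNAs, were not part of these ratios. The summed counts of the 11 Srsf mRNAs were 1.96 and 2.00 times those of the 9 Sf3a and Sf3b mRNAs in TSSK2-IP, 1.28 times in control replicate 2 and 0.419 times in control replicate 1. Against the summed Prpf counts the ratio was 1.40 and 1.39 in TSSK2-IP, 1.04 in control replicate 2 and 0.395 in control replicate 1. Both ratios were thus higher in TSSK2-IP than in either control, but the control libraries were farther from each other than control replicate 2 was from TSSK2-IP. Between the controls, the median log2 ratio of replicate 1 to replicate 2 was -0.78 for Srsf, -0.10 for Hnrnp, 1.00 for Sf3a, 0.79 for Sf3b and 0.64 for Prpf mRNAs.

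How many members were called depended on which control was used. Without control replicate 2, 15 members were called higher and 11 lower, where 17.9% and 17.4% of all genes were. In that fit, too, the lone control library is assumed to vary like the TSSK2-IP libraries. Those called higher included Srsf3, Srsf5, Srsf6 and Srsf9, and those called lower included Hnrnpu, Hnrnpul1, Prpf8 and all 3 Sf3a mRNAs.

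Fold changes of the members were also set against the number of merged annotated exon blocks. Blocks join the exons of all annotated transcripts, including those with a retained intron, so their number can differ from that of an mRNA's exons. Transcripts with a retained intron were annotated for 72.7% of the tested members and 54.5% of all annotated genes tested. Merged annotated exons formed a median of 5 blocks in Srsf genes, 10.5 in Hnrnp, 15 in Sf3a, 12.5 in Sf3b and 15 in Prpf genes, beside 10 over all annotated genes tested. The 10 members with 1 to 5 blocks had a median log2 fold change of 0.73, the 31 members with 6 to 15 blocks 0.48, and the 14 members with more than 15 blocks -0.71. All genes tested ran in the same order in the same bins, with medians of 0.25, -0.01 and -0.22. The bins of the members followed subfamily in part. Of the 10 members with 1 to 5 blocks, 6 were Srsf genes, and 0 Srsf genes had more than 15 blocks. Medians fell across the occupied bins within Srsf, Hnrnp, Sf3a and Prpf genes, but not within Sf3b genes (0.19, -0.90 and -0.52). Spearman's rho between exon blocks and log2 fold change was -0.44 over the 55 members and -0.22 over 14710 annotated genes, which share the same 4 libraries and are not independent. Without control replicate 1 the rho over members was -0.41 and the 3 medians were 0.61, 0.50 and -0.22, and without control replicate 2 the rho was -0.48 and the medians 1.10, 0.35 and -1.16.

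Members with an annotated decay transcript (29 genes) had a median of 0.58 and those without (26 genes) one of 0.04, whereas over all genes tested the medians were -0.03 and -0.01. Without control replicate 1 the medians of the members were 0.58 and 0.16, and without control replicate 2 they were 0.66 and -0.26. This followed subfamily in part. In Hnrnp genes the order was opposite, with 0.31 for the 10 genes that have a decay transcript and 0.48 for the 10 that have none. In Prpf genes it was 0.41 for 7 and -0.50 for 6. No test was made on these descriptions.

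**Figure D5:**
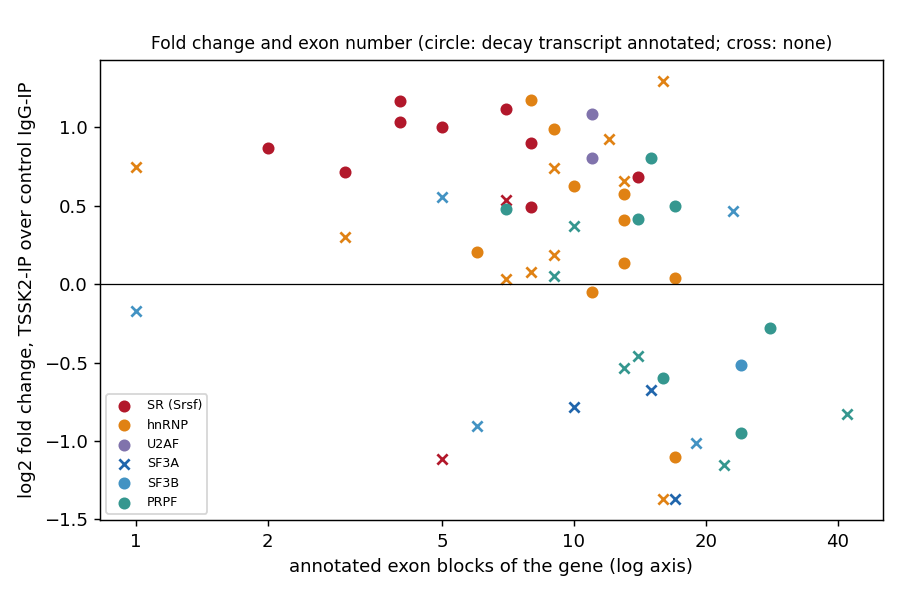
Log2 fold change of TSSK2-IP over control IgG-IP against the number of merged annotated exon blocks (log axis) for the 55 tested members, coloured by subfamily, with circles for genes that have an annotated decay transcript and crosses for those without. The 14 members with more than 15 blocks had a median of -0.71, and the 10 with 5 or fewer had one of 0.73.

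The rest of the splicing machinery was read from 8 further lists with 142 tested genes, of which 1 passed both thresholds, a share near the 0.693% of all genes called higher. It was Rbm4, an alternative splicing regulator of the tissue-regulated list, with 73.8 and 76.1 CPM in TSSK2-IP and 2.96 and 8.04 in control IgG-IP (log2 fold change 3.80, SE 0.52, adjusted p = 0.00543 by the edgeR quasi-likelihood test). Both TSSK2-IP values were far above both controls, and the log2 fold change was 3.27 without control replicate 1 and 4.58 without control replicate 2. The 31 genes of this list had a median of 0.63, which was 0.29 without control replicate 1 and 1.07 without control replicate 2. At an unadjusted p under 0.05, 7 of the 31 were higher, where 8.34% of all genes were, and 0 were lower, where 4.89% were. Celf4, next in this list, had a log2 fold change of 1.55 (SE 0.41, adjusted p = 0.125 from the same test).

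Closest to the SR proteins were their relatives and modifiers. The 19 tested SR-related genes had a median of 0.28, with 4 higher and 0 lower at an unadjusted p under 0.05, where 8.34% and 4.89% of all genes were. Tra2a, a splicing activator that binds GA-rich exons, had 406 and 390 CPM in TSSK2-IP and 32.9 and 84.8 in control IgG-IP, a log2 fold change of 2.76 (SE 0.63, adjusted p = 0.0663 by the edgeR quasi-likelihood test). It passed in the DESeq2 fit, where 2 list genes did. Luc7l, a U1 snRNP-associated protein, had a log2 fold change of 1.41 (adjusted p = 0.213 from the edgeR test). Among the 7 tested genes of the list of SR protein kinases and their importer the median was -0.26 (0.31 without control replicate 1 and -0.53 without control replicate 2) and 0 reached an unadjusted p under 0.05. The kinases Clk1 and Clk4, which phosphorylate SR proteins in the nucleus, had the smallest p there, with log2 fold changes of 1.11 and 1.06 (SE 0.52 and 0.55, adjusted p = 0.383 and 0.410 by the edgeR test). Without control replicate 1 these were 0.50 and 0.49, and without control replicate 2 they were 2.24 and 2.10.

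Core snRNP proteins had a median of 0.41 (0.51 and 0.67 without control replicate 1 and 2), with 5 of 22 higher at an unadjusted p under 0.05 (8.34% of all genes), led by Snrpd3 of the Sm ring at 1.41 and Lsm8 of the U6 ring at 1.46 (SE 0.47 and 0.52). The 11 tested genes for spliceosomal helicases and the snRNP GTPase had a median of -0.90, and 8 of them lay below both controls in both TSSK2-IP libraries, where 21.6% of all genes did. Ddx23 was at -0.98 and Aqr at -1.01 (SE 0.43 and 0.46), and the list median was -0.24 without control replicate 1 and -1.36 without control replicate 2. Other assembly factors had a median of -0.25, with 1 of 36 higher and 7 lower at an unadjusted p under 0.05 (8.34% and 4.89% of all genes), the latter including Crnkl1 and Slu7 at -1.31 and -1.24 (SE 0.46 and 0.46). The median of that list was 0.05 without control replicate 1 and -0.52 without control replicate 2. The minor spliceosome (11 genes, median 0.18, or 0.26 and 0.09 without control replicate 1 and 2) was led by Snrnp48 at 1.34 and Pdcd7 at 1.02 (SE 0.45 and 0.42), and the exon junction complex (5 genes, median 0.40) by Rbm8a at 1.05 and Magohb at 0.74 (SE 0.54 and 0.72). The junction complex values rested on the control used, with a median of 0.19, Rbm8a at 0.46 and Magohb at 0.24 without control replicate 1, and 0.73, 2.07 and 1.45 without control replicate 2. None of the core, helicase, assembly, minor spliceosome or junction genes named here passed, with adjusted p between 0.257 and 0.658 by the edgeR quasi-likelihood test.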

How the data were processed

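Raw counts per gene, not normalized, were deposited by the authors, who used Trimmomatic 0.39 for trimming, STAR for mapping to GRCm38 and featureCounts 2.0.3 for counting. The submitters' notes give STAR 2.7.10a. The strand setting and the handling of reads that fit several genes are not given in the sources used here. Symbols, positions and exons were taken from GENCODE vM21 (GRCm38), in which 21894 of 21936 gene identifiers were found.

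Counts were filtered with filterByExpr, scaled by TMM and tested with edgeR 4.0.16 (glmQLFit, glmQLFTest) in R 4.3.3 across 14722 genes, with Benjamini-Hochberg adjustment. Standard errors are the size of the log2 fold change over the root of F. DESeq2 1.42.0 was an alternative. The estimated common dispersion was 0.135, and 1 count was worth 0.156 to 0.230 CPM. Fits were tested on simulated data in which both groups shared the same dispersion. The replicate spread of the real groups was unequal (SD 0.89 in the controls and 0.22 in TSSK2-IP). The simulation cannot show how the test behaves in that case. The members, lists and thresholds were chosen with earlier results of these data known. Named genes were, in each subfamily, the 3 with the smallest p, the extremes of fold change and the most abundant per kilobase, and in each other list the 2 with the smallest p. Srsf4, Srsf7, Sf3b1, U2af1l4, Hnrnpr and Hnrnph1 were named outside this rule, after their values were seen. The GC and length offsets were loess fits per library. Exonic lengths, also those behind values per kilobase, were of exons merged over all annotated transcripts and can exceed the length of the mRNA. DDX4-IP libraries were not analysed here.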

Additional observations from a re-analysis of the deposited data

How the results depend on the processing

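Members past both thresholds stayed at 0 in both directions in all 8 alternatives that kept the 4 libraries, and ranged with a library left out from 0 to 15 higher and from 0 to 11 lower. Calls over all genes moved more. Higher genes were 102 in the reported fit, 160 with DESeq2, 29 with at least 10 counts in every library, 283 without a filter on low counts, 20 with upper-quartile normalization, and 23 to 2755 with a library left out. Lower genes were 0, 1 with DESeq2, 24 without the filter, and 0 to 2688 with a library left out. The replicate number as a block gave 274 higher and 3 lower genes, or 179 and 8 with GC content and length offsets, and changed no call among members. The replicate 1 deviations of both groups correlated at r = 0.13 over 14722 genes, and 2 pairs cannot show whether the numbers pair the libraries.

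At an unadjusted p under 0.05, higher members were 6 as reported, 3 with GC content and length offsets, 2 with these offsets and the replicate block, and 0 to 33 with a library left out. Lower members were 2 as reported, 5 with DESeq2, 7 with upper-quartile normalization, 1 with the replicate block with or without the offsets, and 0 to 18 with a library left out. Members below both controls ranged from 12 to 25 with a library left out. In the 8 splicing lists, genes past both thresholds were 1 as reported, 2 with DESeq2, 2 without the filter, 2 with the replicate block, and 1 to 33 with a library left out. Their higher genes at an unadjusted p under 0.05 were 19 as reported, 11 with DESeq2, 12 with the replicate block and offsets, and 2 to 53 with a library left out, and the lower ones were 9, 3 with the replicate block, 15 with upper-quartile normalization, and 0 to 45.

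With a library left out, the Hnrnp median ranged from 0.30 to 0.53 and was 0.21 with GC content and length offsets, and the Prpf median ranged from -0.52 to 0.25. DESeq2's size factors moved the median of all genes by -0.12, and relative to it the Srsf median was 0.90 and the Sf3a median -0.78. The Srsf, Hnrnp and U2af medians kept their sign in all alternatives. The Sf3a and Sf3b medians did too, but their size rested on control replicate 1. They were -0.78 and -0.34 in the reported fit and -0.10 and -0.01 without that library. The causes were not tested. Counts below about 30 limit Srsf12, Sf3b5 and Sf3b6.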
